A study of Mus musculus with 6 samples.

Results

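The genes described here encode 8 enzymes of proline and glutamate metabolism, out of 27179 genes counted in each library: Aldh4a1, Prodh and Prodh2 of proline breakdown, Aldh18a1 and Pycr1 of proline synthesis, Oat, which joins ornithine to the same pathway, and Glud1 and Glul, which use glutamate. They were matched by symbol, and all 8 had an entry in every file. The set was chosen by the fold change of Aldh4a1, whose transcript was among the largest decreases in knockout oocytes, and by pathway, so the knockout and wildtype values of the 8 enzymes are given as a description, with no test. RNA was measured in mouse germinal vesicle (GV) oocytes, the fully grown oocytes still arrested in the first meiotic prophase. The knockout group had lost maternal Prdm10, a zinc finger transcriptional regulator, because floxed exon 5 had been deleted by Zp3-cre, a recombinase made only once oocytes grow; the control group was wildtype, and its alleles beyond that word are not given in the labels. Each group had 3 libraries, each from about 10 pooled oocytes, and neither the age nor the strain of the mice is stated in the labels. The labels call the replicates biological but name no separate animals, so the p-values below measure the spread between these pools.

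Proline is broken down inside mitochondria. Proline dehydrogenase (Prodh) oxidises it to pyrroline-5-carboxylate, usually shortened to P5C, and P5C dehydrogenase (Aldh4a1) turns that reactive intermediate into glutamate. Synthesis runs the other way, from glutamate to P5C through Aldh18a1 and from P5C to proline through the P5C reductases, while ornithine aminotransferase (Oat) makes P5C from ornithine. Glutamine and proline are fuels and osmolytes that oocytes and early embryos take up from their surroundings.

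Total counts ran from 22492228 to 38831227 reads per library, and 1 read was worth between 0.0240 and 0.0457 CPM (counts per 1 000 000 reads, after TMM scaling of library sizes). Prdm10 itself, counted over the whole gene, had 2.80, 3.82 and 3.05 CPM in knockout and 10.4, 23.1 and 23.0 CPM in wildtype replicates 1 to 3. Wildtype replicate 1 stood apart, with Spearman correlations across genes of 0.976 and 0.975 to the other wildtype libraries, whereas those correlated at 0.996. Wildtype replicates 2 and 3 were closer to every knockout library (0.978 to 0.981) than to wildtype replicate 1. That library correlated with the knockout libraries at 0.957 to 0.963. Results that rest on wildtype replicate 1 are therefore also given without it. The 13 oocyte markers, all detected, summed to 34805 to 38112 CPM in knockout. In wildtype they summed to 28144, 35391 and 35058 CPM in replicates 1 to 3, so wildtype replicate 1 was the lowest library. Summed levels of 17 granulosa markers were 81.7 to 96.7 CPM in knockout and 87.8 to 97.2 CPM in wildtype, with Ptx3 at 0 everywhere, and those of 12 theca and stroma markers 9.35 to 30.0 and 6.36 to 32.4 CPM. The sum of 13 blood, immune and endothelial markers was 118 to 122 CPM in knockout and 37.6 to 82.8 CPM in wildtype (p = 0.1 in an exact permutation test, two-sided, which cannot go lower with 3 libraries a group), of which Pecam1 made up 103 to 105 and 30.4 to 75.7 CPM, while Hba-a1 and Cdh5 were at 0. Of the single markers, 3 passed the test in edgeR: the oocyte marker Mos fell (1015 to 662 CPM, adjusted p = 0.0274), and the cumulus marker Ptgs2 (1.07 to 2.86 CPM, adjusted p = 0.0446) and the macrophage marker Cd68 (2.10 to 10.6 CPM, adjusted p = 0.0108) rose. Other macrophage markers were scarce, with mean levels in knockout and wildtype of 0.365 and 0.636 CPM for Csf1r (log2 fold change -0.80, adjusted p = 0.204, edgeR), 0.124 and 0.127 CPM for Lyz2 and 0.0453 and 0.0288 CPM for Adgre1. The part of these cells in the enzyme values was not tested. In such pools fewer cells of a type and less RNA per cell cannot be told apart.

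Aldh4a1 was nearly lost without Prdm10. Its transcript (Entrez 212647, GRCm38 chromosome 4, 139622871 to 139649691, 15 exons in the longest coding transcript) had 85, 61 and 78 reads in the knockout libraries and 1402, 1482 and 1196 in the wildtype libraries. Scaled to depth, these were 2.51, 1.63 and 2.07 CPM in knockout and 33.7, 57.1 and 54.7 CPM in wildtype. Every knockout library lay far below every wildtype library, and wildtype replicate 1 was the lowest of its group. The means were 2.07 ± 0.438 and 48.5 ± 12.9 CPM (SD, n = 3 each), so that 4.26% of the wildtype level remained, a log2 fold change of -4.55 (SE 0.274). With any 1 library left out the value stayed between -4.76 and -4.42. Among 13573 tested genes with a known coding length, Aldh4a1 moved from percentile 66.1 of level per length in wildtype to percentile 18.1 in knockout.

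**Figure D1:**
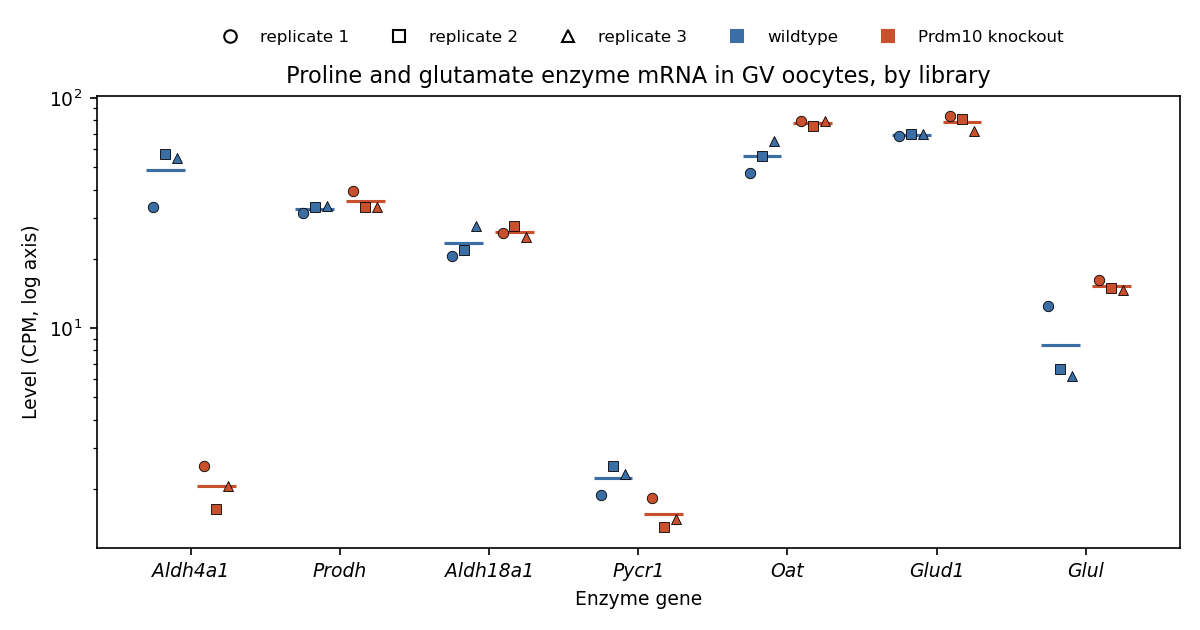
Level of each tested enzyme gene in every library, in CPM on a log axis, with bars at the group means and symbols for the replicates. The 3 knockout points of Aldh4a1 sit between 1.63 and 2.51 CPM, below all wildtype points (33.7 to 57.1 CPM), while the groups lie much nearer to each other for the other enzymes, with Oat at 47.4 to 79.5 CPM and Glul at 6.22 to 16.2 CPM over all libraries.

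Prodh, which carries out the step just before, did not follow. Its levels (Entrez 19125, chromosome 16, 18071726 to 18089283) were 39.3, 33.6 and 33.6 CPM in knockout and 31.5, 33.6 and 33.8 CPM in wildtype. The groups overlapped, the means were 35.5 ± 3.25 and 33.0 ± 1.25 CPM (SD, n = 3 each), and the log2 fold change was 0.11 (SE 0.123). Prodh2, the dehydrogenase of hydroxyproline (Entrez 56189, chromosome 7, 30493586 to 30513402), had 1 read in knockout replicate 3 and 0 in the other libraries; 3 reads, the limit that a count of 0 allows for counting error, correspond to 0.0720 to 0.137 CPM. It was too scarce to be tested and gets no fold change.

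The ratio of Aldh4a1 to Prodh mRNA, of the 2 steps of proline breakdown, was far lower in knockout libraries. With Prodh nearly level, it restates the decrease of Aldh4a1 by which the set was chosen, and enzyme activity was not measured. Per kilobase of coding sequence, wildtype oocytes held 1.14, 1.81 and 1.72 Aldh4a1 transcript units for each unit of Prodh, and knockout oocytes 0.0680, 0.0517 and 0.0655. The mean ratio was 1.56 ± 0.367 in wildtype and 0.0617 ± 0.00879 in knockout (SD, n = 3 each), with no overlap. Per kilobase of all exons the ratio was 0.899, 1.43 and 1.36 in wildtype, so that wildtype replicate 1 had less Aldh4a1 than Prodh on that length, and 0.0537, 0.0408 and 0.0517 in knockout. The ratio of Prodh to Aldh18a1, the first enzymes of breakdown and of synthesis, was 1.90 ± 0.248 in wildtype and 1.80 ± 0.207 in knockout. It overlapped between the groups. The other pairs formed did not overlap. Oat to Aldh18a1 was 4.35 ± 0.255 in wildtype and 5.41 ± 0.433 in knockout, and Aldh18a1 to Pycr1 4.09 ± 0.640 and 6.66 ± 1.23. Glud1 to Glul was 6.06 ± 2.10 and 3.44 ± 0.172, with wildtype replicate 1 (3.66) close to the knockout libraries. Ratios of other genes were not formed for comparison.

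**Figure D2:**
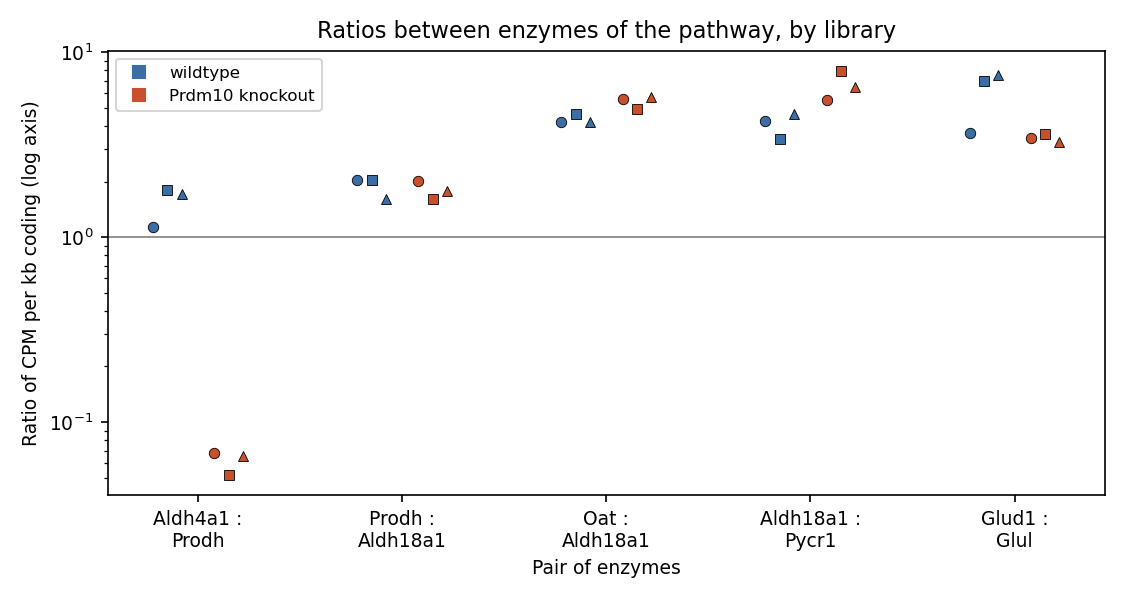
Ratio of level per kilobase of coding sequence between pairs of enzymes in each library, on a log axis, with a line at equal level. For Aldh4a1 to Prodh the wildtype libraries lie between 1.14 and 1.81 and the knockout libraries between 0.0517 and 0.0680. For the other pairs both groups lie within a few-fold of each other, and they overlap only for Prodh to Aldh18a1.

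The stretches before the starts of Aldh4a1 and Prodh are shown as a description, picked with the values of both genes known. They are RefSeq sequences of GRCm38.p6, read 5′ to 3′ on the gene's own strand and ending at the outermost annotated start of the gene. Capitals mark CCAAT on either strand, so ATTGG is the same box read in reverse. The first is chr4:139622644-139622870 on the plus strand and the second chr16:18089284-18089440 on the minus strand.
Aldh4a1: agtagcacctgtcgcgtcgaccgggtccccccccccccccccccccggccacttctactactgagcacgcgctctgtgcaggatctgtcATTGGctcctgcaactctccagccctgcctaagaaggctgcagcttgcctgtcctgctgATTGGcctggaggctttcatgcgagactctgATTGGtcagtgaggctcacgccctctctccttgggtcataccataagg
Prodh: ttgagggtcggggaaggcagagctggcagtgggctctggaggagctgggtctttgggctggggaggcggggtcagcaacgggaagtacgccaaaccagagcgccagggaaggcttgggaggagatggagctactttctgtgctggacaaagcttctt
The start sites of the promoter table lie inside these gene models, so the printed parts, of 227 and 157 bases, are shorter than the 250 bases before the table's start sites that were searched for motifs. In those 250 bases Aldh4a1 held 3 CCAAT matches, all in reverse, and Prodh held 0. Of 32851 promoter windows of that length in the table, 33.9% held at least 1 match and 2.79% at least 3. Glul, Oat and Pycr1 held 2 each, Prodh2 held 1, and Aldh18a1 and Glud1 held 0. The other motifs searched on both strands were the GC box, spelled GGGCGG and held by 32.7% of windows, the box for TATA-binding protein, spelled TATAAA and held by 12.4%, the E-box, spelled CACGTG and held by 6.02%, and TGATGNAA, held by 3.45%, the core of the element bound by the amino acid response factor ATF4. None of these spellings contains another of them. Aldh4a1, Prodh and Prodh2 held 0 of these. The ATF4 core occurred once among the 8 enzymes, in Pycr1, the E-box once, in Aldh18a1, and the GC box in Glud1, Aldh18a1, Glul and Pycr1. A match of letters is a description of the window and not a bound site, and the motifs were chosen with the sequences in view. None of them was taken as a binding motif of Prdm10, and a link between the matches and its loss was not tested.

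On the side of synthesis, the transcript of Aldh18a1, which makes P5C from glutamate (Entrez 56454, chromosome 19, 40550257 to 40588463), was at 25.8, 27.8 and 25.0 CPM in knockout and 20.5, 21.8 and 27.9 CPM in wildtype. The groups overlapped, with means of 26.2 ± 1.48 and 23.4 ± 3.92 CPM and a log2 fold change of 0.17 (SE 0.151). Pycr1, a mitochondrial P5C reductase (Entrez 209027, chromosome 11, 120638998 to 120643748), was scarce in both groups, at 1.83, 1.36 and 1.48 CPM in knockout and 1.87, 2.50 and 2.33 CPM in wildtype. Knockout levels lay below wildtype levels by a small margin, with 51 to 62 reads against 51 to 78 reads per library behind them and a log2 fold change of -0.51 (SE 0.228).

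Pycrl, the gene of a cytosolic P5C reductase also known as Pycr3, was far more abundant than Pycr1 in these oocytes. Per kilobase of coding sequence its level was 213 ± 23.5 CPM in wildtype and 148.5 ± 11.5 CPM in knockout (SD, n = 3 each), against 2.41 ± 0.352 and 1.68 ± 0.260 CPM for Pycr1. Pycrl fell, from 197, 160 and 169 CPM in wildtype to 111, 129 and 126 CPM in knockout (log2 fold change -0.52, SE 0.129, adjusted p = 0.0404, edgeR quasi-likelihood test). All knockout libraries lay below all wildtype libraries. The call on Pycrl was lost with any 1 library other than wildtype replicate 1 left out (adjusted p between 0.0670 and 0.169, edgeR).

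Ornithine aminotransferase was somewhat higher in knockout oocytes. Oat (Entrez 18242, chromosome 7, 132557475 to 132576398) was at 79.5, 75.6 and 79.1 CPM in knockout and 47.4, 56.0 and 64.8 CPM in wildtype. The groups did not overlap, the means were 78.1 ± 2.13 and 56.0 ± 8.73 CPM (SD, n = 3 each), and the log2 fold change was 0.48 (SE 0.140), or 0.37 without wildtype replicate 1. Arg2, the mitochondrial arginase that supplies ornithine, was among the most abundant transcripts of the neighbouring lists, at 477 ± 29.1 CPM in knockout and 499 ± 105 CPM in wildtype, and did not pass the test (log2 fold change -0.06, adjusted p = 0.834, edgeR).

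Of the enzymes that use glutamate, glutamate dehydrogenase was nearly level and glutamine synthetase was higher in knockout oocytes. Glud1, which feeds glutamate into the tricarboxylic acid cycle (Entrez 14661, chromosome 14, 34310727 to 34345033), was at 83.2, 80.9 and 72.0 CPM in knockout and 68.4, 69.6 and 69.9 CPM in wildtype, with a log2 fold change of 0.18 (SE 0.112). Its groups did not overlap, yet the lowest knockout library lay close to the highest wildtype library, and a processed pseudogene, Glud-ps, could share its reads. Glul, which makes glutamine from glutamate and ammonia (Entrez 14645, chromosome 1, 153899929 to 153909723), was at 16.2, 14.9 and 14.7 CPM in knockout and 12.5, 6.63 and 6.22 CPM in wildtype. All knockout libraries were above all wildtype libraries, but wildtype replicate 1 lay nearer to the knockout libraries than to its own group. The log2 fold change was 0.84 (SE 0.267) with that library and 1.25 without it.

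**Figure D3:**
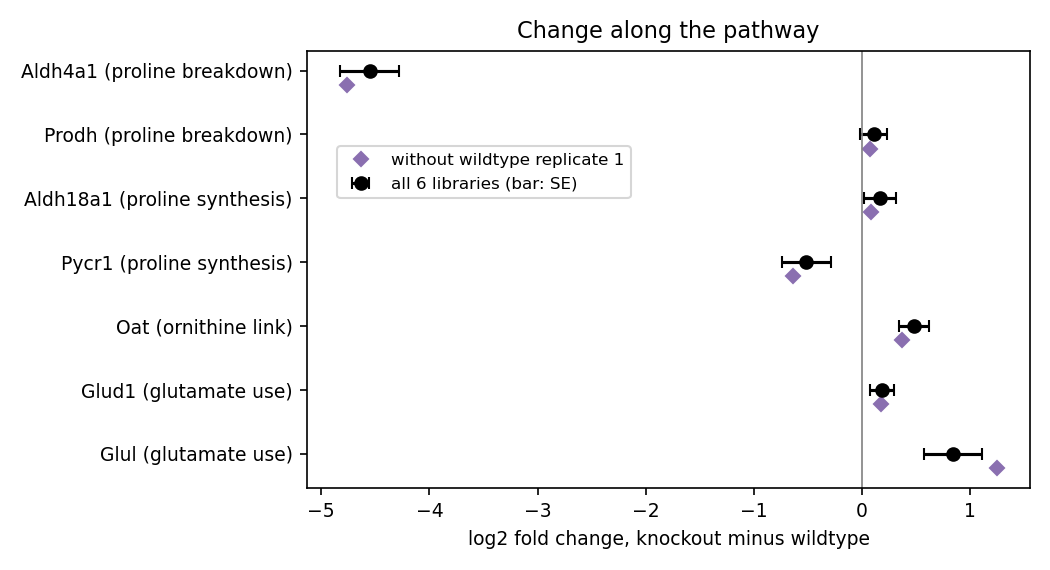
Fitted log2 fold change of each tested enzyme, knockout minus wildtype, with bars for the standard error and diamonds for the fit without wildtype replicate 1. Aldh4a1 lies at -4.55, and the other 6 lie between -0.51 and 0.84; Glul moves to 1.25 without that library.

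Of the 7 enzymes tested, 1 had an adjusted p under 0.05 in the fit over all genes, Aldh4a1, where 11.2% of the 14957 genes tested passed (5.87% higher and 5.34% lower), and the groups did not overlap for 5 of the 7, where 40.2% of all tested genes did not overlap. The median log2 fold change of the 7 was 0.17, against -0.00248 over all tested genes. Without wildtype replicate 1, 4 of 7 passed, Aldh4a1 and Pycr1 lower and Oat and Glul higher, where 34.4% of all genes passed (16.7% higher and 17.7% lower). With each other library left out 1 of 7 passed, where the share of all genes was 2.48%, 2.35% and 2.64% without knockout replicates 1, 2 and 3 and 5.90% and 6.02% without wildtype replicates 2 and 3; in DESeq2 3 of 7 passed, where 17.9% of all genes did. These shares are the background for the counts of the lists below. Because the set was chosen with this comparison known, nothing is read from these counts.

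Ordered by mean level per kilobase of coding sequence, wildtype oocytes held Oat at 42.6 ± 6.63, Glud1 at 41.4 ± 0.464, Aldh4a1 at 28.8 ± 7.64, Prodh at 18.3 ± 0.693, Aldh18a1 at 9.81 ± 1.65, Glul at 7.55 ± 3.15 and Pycr1 at 2.41 ± 0.352 CPM per kilobase (SD, n = 3 each), with Prodh2 at 0. Oat and Glud1 overlapped, as did Aldh18a1 and Glul, so their order is not set by these data. In knockout oocytes the order was Oat (59.3 ± 1.62), Glud1 (47.0 ± 3.54), Prodh (19.8 ± 1.81), Glul (13.7 ± 0.749), Aldh18a1 (10.99 ± 0.620), Pycr1 (1.68 ± 0.260) and Aldh4a1 (1.23 ± 0.260 CPM per kilobase). Pycr1 (1.97, 1.47 and 1.60) and Aldh4a1 (1.49, 0.967 and 1.23) overlapped there, so their order is not set either. Per kilobase of all exons the order of the wildtype means was the same, but there Oat and Glud1 did not overlap, nor did Aldh18a1 and Glul, while Aldh4a1 (9.95, 16.9 and 16.2 CPM per kilobase) overlapped with Prodh (11.1, 11.8 and 11.9), and in knockout Aldh18a1 stood above Glul and Aldh4a1 above Pycr1. Aldh4a1 and Pycr1 overlapped in knockout on that length too.

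The wider pathway was read from lists of genes that leave out the 8 enzymes. Over 6 metabolic lists and a list of ATF4 response genes, with 200 tested genes in all, 13 rose and 9 fell in knockout oocytes, 11% of them, which is near the 11.2% of all genes, with a median log2 fold change of 0.15 against -0.00248 over all tested genes. A positive median was not particular to these lists: it was 0.11 for oocyte, 0.12 for granulosa and 0.07 for theca and stroma markers. For blood, immune and endothelial markers, with 4 tested, it was 0.47. Only 1 of the 200, Mpst, had a log2 fold change at or below that of Aldh4a1. Among the called genes picked by size of change in each list, Mpst, Gldc, Stc2 and Pmaip1 passed with each library left out in turn, and each of the others failed with at least 1 of the knockout libraries dropped.

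Among 20 tested genes of proline and hydroxyproline enzymes, proline peptidases and transporters, 1 rose and 2 fell (median log2 fold change 0.16). These were 15% of the list, against 11.2% of all genes. Pepd, the peptidase that frees proline from dipeptides, rose from 0.648, 1.89 and 3.57 CPM in wildtype to 10.8, 7.45 and 7.31 CPM in knockout (log2 fold change 2.12, SE 0.509, adjusted p = 0.0373, edgeR). Wildtype replicate 1 was the lowest library, and the log2 fold change of Pepd was 1.66 without it. The genes that fell were Pycrl, above, and Slc6a20b, of the imino acid transporter family SLC6A20, which went from 29.3, 30.4 and 37.4 to 20.7, 18.5 and 20.7 CPM (log2 fold change -0.70, SE 0.142, adjusted p = 0.0226, edgeR). Its close relative Slc6a20a, which could share its reads, was at 35.2 ± 1.58 CPM in knockout and 36.8 ± 1.80 CPM in wildtype (log2 fold change -0.07, adjusted p = 0.726, edgeR). For this list 3 rose and 3 fell without wildtype replicate 1, where 34.4% of all genes passed. The counts were 1 and 1 without wildtype replicate 2, 1 and 0 without wildtype replicate 3, and 0 and 0 when any knockout library was dropped.

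Glutamate and glutamine enzymes and transporters had 4 genes higher and 2 lower of 43 tested (median log2 fold change 0.08). These were 14.0% of the list, against 11.2% of all genes. Gfpt2, which uses glutamine to make glucosamine phosphate, rose from 0.840, 1.58 and 1.78 to 4.89, 5.08 and 4.05 CPM (log2 fold change 1.77, SE 0.292, adjusted p = 0.0110, edgeR). Asns, asparagine synthetase, rose from 4.08 ± 0.428 to 7.20 ± 0.0776 CPM (log2 fold change 0.82), Ears2, the mitochondrial glutamyl-tRNA synthetase, from 7.53 ± 1.05 to 11.8 ± 0.114 CPM (0.65), and Slc38a7, a lysosomal glutamine transporter, also rose (0.55). Slc25a13, a mitochondrial aspartate-glutamate carrier, fell from 41.0, 44.1 and 43.3 to 20.0, 25.6 and 25.8 CPM (log2 fold change -0.85, SE 0.140, adjusted p = 0.0111, edgeR), and Slc7a11, the cystine-glutamate exchanger, fell too (-0.58). Dropping wildtype replicate 1 gave 12 higher and 3 lower, where 34.4% of all genes passed. Without wildtype replicate 2 or 3 the list had 2 and 1. Without knockout replicates 1, 2 and 3 it had 0 and 0, 0 and 0, and 1 and 0.

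In arginine, ornithine and polyamine metabolism 2 of 27 tested genes rose and 1 fell (median log2 fold change 0.07). These were 11.1% of the list, against 11.2% of all genes. Oaz2, an antizyme that restrains ornithine decarboxylase, rose from 33.5, 48.2 and 47.0 to 81.4, 80.7 and 78.2 CPM (log2 fold change 0.90, SE 0.159, adjusted p = 0.0138, edgeR). Sat1, which acetylates polyamines, rose from 18.5 ± 1.09 to 29.6 ± 1.03 CPM (0.68), and Cps1, carbamoyl phosphate synthetase of the urea cycle, fell from 8.60 ± 1.35 to 5.21 ± 0.330 CPM (-0.73). Odc1, the decarboxylase itself, was at 73.9 ± 2.15 and 68.6 ± 24.4 CPM in knockout and wildtype (log2 fold change 0.11, adjusted p = 0.807, edgeR). Here 6 were higher and 7 lower once wildtype replicate 1 was dropped, where 34.4% of all genes passed. The counts were 1 and 0 without wildtype replicate 2, 2 and 0 without wildtype replicate 3, and 0 and 0 when any knockout library was dropped.

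The other aldehyde dehydrogenases, enzymes that oxidise aldehydes to acids, did not show a decrease of that size. Of 15 tested members of that family 0 passed in edgeR, with log2 fold changes between -1.07 and 0.94 and a median of 0.24; 2 had an unadjusted p under 0.05, 2 passed in DESeq2 and 4 in edgeR without wildtype replicate 1, all higher, where 17.9% and 34.4% of all genes passed. Closest to the threshold were Aldh3b1, at 4.47 ± 0.854 against 2.62 ± 0.226 CPM (log2 fold change 0.77, adjusted p = 0.0516, edgeR), and Aldh16a1, at 2.27 ± 0.667 against 1.19 ± 0.159 CPM (0.94, adjusted p = 0.0740, edgeR). The tricarboxylic acid cycle, into which glutamate carbon flows, had 0 of 30 tested genes past the threshold in edgeR, 4 at an unadjusted p under 0.05, 2 in DESeq2 and, without wildtype replicate 1, 7 higher and 4 lower in edgeR, against the same shares of all genes. Its median log2 fold change was 0.18, with Suclg2 at 0.51 (adjusted p = 0.0640, edgeR) and Ogdh, a subunit of 2-oxoglutarate dehydrogenase, at 0.70 (adjusted p = 0.0922, edgeR).

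Breakdown of other amino acids held 3 genes that rose and 4 that fell among 41 tested (median log2 fold change 0.19). These were 17.1% of the list, against 11.2% of all genes. Mpst, mercaptopyruvate sulfurtransferase of cysteine breakdown, had 343, 129 and 106 reads in wildtype and 0, 2 and 1 in knockout libraries, which is 0.426% of the wildtype level with an exact conditional 95% interval of 0.0875 to 1.25% for counting error (adjusted p = 0.000318, edgeR). Gldc, of the glycine cleavage system, rose from 1.13, 2.50 and 1.51 to 10.1, 6.47 and 9.32 CPM (log2 fold change 2.35, SE 0.321, adjusted p = 0.00540, edgeR). Tdh, threonine dehydrogenase, rose (1.16) and Sds, serine dehydratase, fell (-1.39), both under 4 CPM, and Dbt rose (0.90) while Kynu (-1.06) and Ethe1 (-0.62) fell. There were 5 higher and 8 lower without wildtype replicate 1, where 34.4% of all genes passed. The counts were 2 and 3 without wildtype replicate 2 and 2 and 1 without wildtype replicate 3. They were 1 and 1, 2 and 1, and 1 and 1 without knockout replicates 1, 2 and 3.

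**Figure D4:**
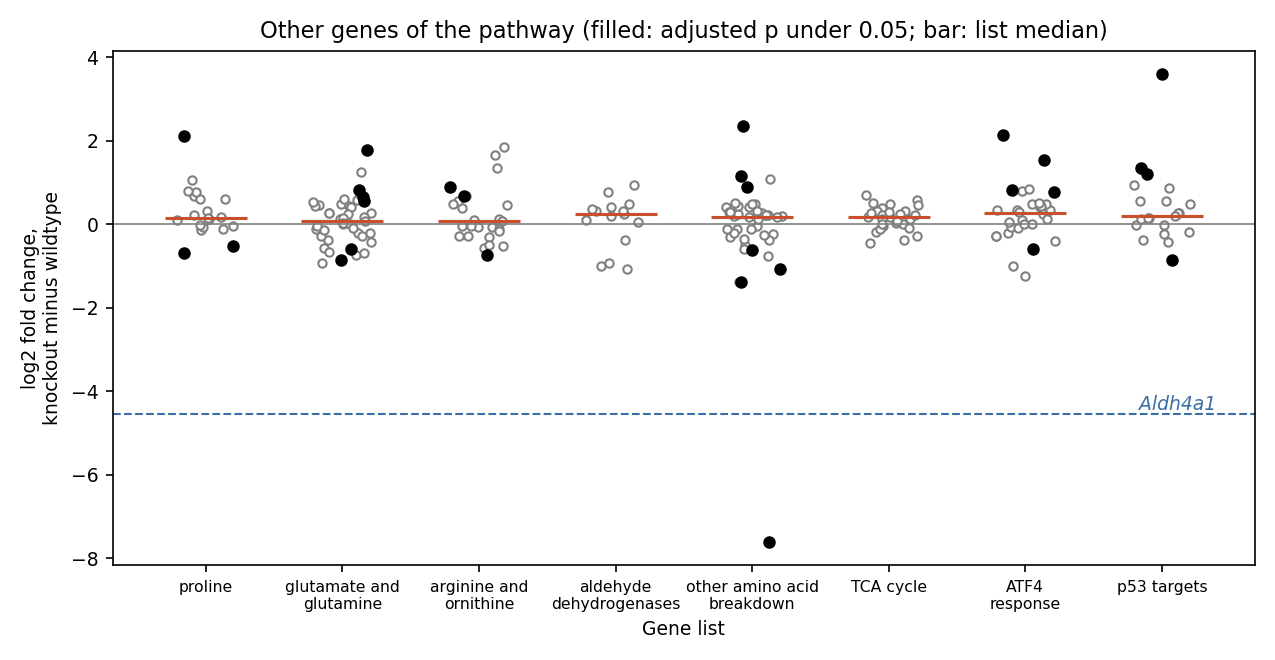
Fitted log2 fold change, knockout minus wildtype, of every tested gene of each list, with filled points for an adjusted p under 0.05, bars at list medians and a dashed line at Aldh4a1. List medians lie between 0.07 and 0.28, and only Mpst, at -7.60, lies below the dashed line.

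Among 30 tested genes of the ATF4 response, which raises proline and serine synthesis when amino acids are short, 4 rose and 1 fell (median log2 fold change 0.28). These were 16.7% of the list, against 11.2% of all genes. Stc2 rose from 0.696, 0.770 and 1.56 to 4.36, 4.35 and 4.34 CPM (log2 fold change 2.15, adjusted p = 0.00643, edgeR). Vldlr (1.55), Asns and Ddit3 (0.77) also rose, and Slc7a11 fell. Asns and Slc7a11 also stand in the glutamate list. Leaving out wildtype replicate 1 gave 11 higher and 3 lower, where 34.4% of all genes passed. With the other libraries left out in turn, between 1 and 3 were higher and 0 lower. Of 21 tested targets of p53, which is known to induce Prodh and Aldh4a1, 3 rose and 1 fell (median 0.21), 19.0% of them against 11.2% of all genes. Pmaip1, a pro-death BCL2 relative, rose from 0.432, 0.578 and 0.823 to 7.99, 7.08 and 6.52 CPM (log2 fold change 3.60, SE 0.261, adjusted p = 0.000384, edgeR), Plk2 (1.34) and Ccng1 (1.21) rose, and Btg2 (-0.85) fell. For p53 targets the counts were 7 and 4 without wildtype replicate 1 (34.4% of all genes), 2 and 1 without wildtype replicate 2, 1 and 1 without wildtype replicate 3 or knockout replicate 1, and 1 and 0 without knockout replicate 2 or 3.

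Around Aldh4a1 itself, the 5 genes on either side were read to see how far along the chromosome the difference reached. Of these 10, 3 had no read in any library (Pax7, 4933427I22Rik and Klhdc7a) and 7 were tested, of which 1 fell and 0 rose, 14.3% of them against 11.2% of all genes (5.34% lower). It was Tas1r2, a taste receptor gene on the same strand that starts 3846 bp past the end of Aldh4a1. Tas1r2 had 14, 8 and 15 reads in knockout and 43, 22 and 36 in wildtype, or 0.413, 0.214 and 0.397 against 1.03, 0.847 and 1.65 CPM (log2 fold change -1.76, SE 0.389, adjusted p = 0.0296, edgeR). The groups did not overlap, but these are few reads, and the call was lost when wildtype replicate 3 or a single knockout library was dropped (adjusted p between 0.0739 and 0.119, edgeR). Iffo2, which ends 2488 bp before Aldh4a1 on the same strand, was at 6.54 ± 0.609 CPM in knockout and 9.34 ± 1.74 CPM in wildtype and did not pass (log2 fold change -0.52, adjusted p = 0.114, edgeR). The other 5 tested neighbours, Akr7a5, Mrto4, Emc1, Ubr4 and Igsf21, had log2 fold changes between -0.08 and 0.65.

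**Figure D5:**
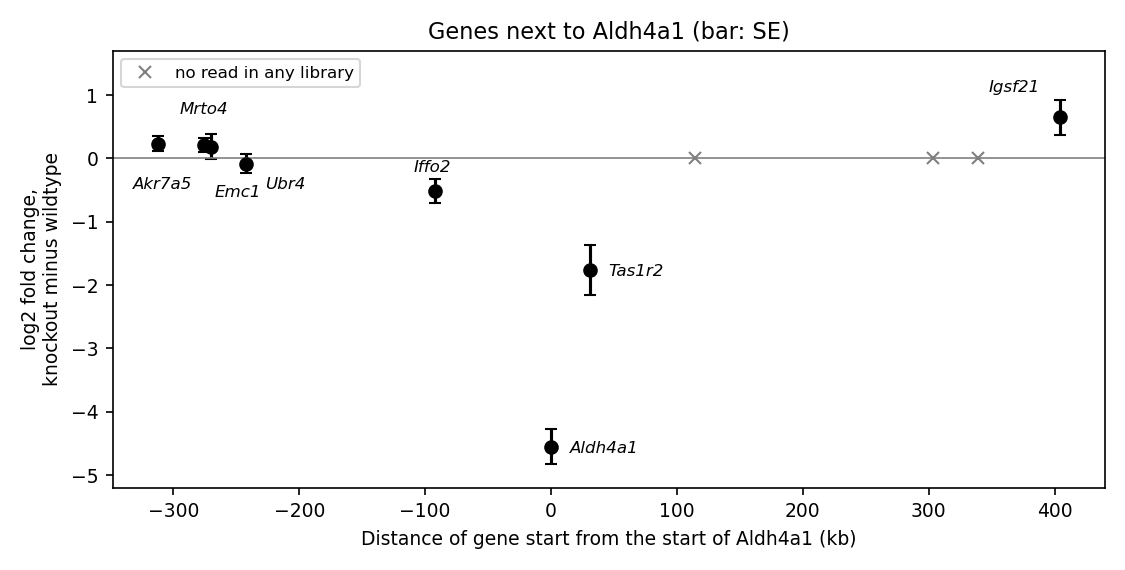
Fitted log2 fold change, knockout minus wildtype, of Aldh4a1 and the 5 genes on either side against the distance between gene starts in kilobases, with bars for the standard error and crosses for genes with no read. Aldh4a1 lies at -4.55, Tas1r2 next to it at -1.76, and the other neighbours between -0.52 and 0.65.

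The profile of Aldh4a1 over the 6 libraries was most like those of Madd, Ankrd13a, Lsr, Ankmy2 and Fam187b, by the distance between log2 levels centred on each gene's mean (0.57, 0.66, 0.69, 1.04 and 1.07). Madd was at 1.71, 1.04 and 1.80 CPM in knockout and 30.5, 59.6 and 47.6 CPM in wildtype, with wildtype replicate 1 lowest in its group as for Aldh4a1. Lsr was at 2.03, 1.02 and 1.80 CPM in knockout and 18.3, 30.6 and 31.0 CPM in wildtype. Oat was most like Afg1l, Slc22a3 and Tuba3b (0.10 to 0.12), and Glul most like Cpn1, Pip5kl1 and Gm20758 (0.12 to 0.22), all of them higher in knockout libraries and, for the genes like Glul, with wildtype replicate 1 nearest to those. The nearest genes of Prodh were Zscan12, Magi1 and Olfr111, of Aldh18a1 Ppp1r2, Ino80c and Dlgap2, of Glud1 Fpgs, Kdm1a and Gas8, and of Pycr1 Siglecf, Lrrc32 and Pygl. All these profiles span the same 6 libraries in 2 groups, and the likeness is a description of them.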

How the data were processed

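RNA from pools of about 10 GV oocytes was extracted with a PicoPure kit and made into single-end libraries with SMARTer Ultra Low Input and NexteraXT kits, per the labels. The authors deposited raw counts per Entrez gene for 6 libraries. STAR 2.7.11a, featureCounts 2.0.3 and the build GRCm38.p6 (mm10) are named in the submitters' processing notes; for the annotation, strand setting and treatment of multiply mapped reads the sources used here give nothing. Gene names and promoters came from RefSeq (GRCm38.p6), which named 25275 of 27179 identifiers, and 18 more came from GENCODE.

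Groups of 3 knockout and 3 wildtype libraries were compared with the edgeR 4.0.16 quasi-likelihood test (R 4.3.3) after TMM scaling and filterByExpr, which kept 14957 genes, with Benjamini-Hochberg adjustment over all of them and a threshold of 0.05. The procedure was also run on simulated counts, but no simulated library stood apart as wildtype replicate 1 does, so that run does not cover this feature. Alternatives were other scalings and filters, a replicate block, DESeq2 1.42.0, limma-voom (limma 3.58.1) and each library left out in turn. In each list the called genes with the largest changes were named, up to 4, or those with the smallest p where fewer than 2 were called; Slc38a7, Dbt, Kynu, Ethe1 and the related genes Slc6a20a, Arg2 and Odc1 were added after their values were seen. The enzymes and lists were chosen with earlier results of these data known. Some results are not reported here.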

Additional observations from a re-analysis of the deposited data

How the results depend on the processing

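Aldh4a1 kept a log2 fold change between -4.76 and -4.42 with each library left out, and the direction of every tested enzyme held under all alternatives run on it. Glul ranged from 0.67 to 1.25, the highest without wildtype replicate 1. Counts of called genes moved more than fold changes. With each library left out they ranged from 357 to 5199 over all genes (1676 with all libraries), 1 to 4 for the enzymes, 0 to 6 for proline, 0 to 15 for glutamate, 0 to 13 for ornithine, 0 to 4 for aldehyde dehydrogenases, 2 to 13 for amino acid breakdown, 0 to 11 for the tricarboxylic acid cycle, 1 to 14 for ATF4, 1 to 11 for p53 and 0 to 1 for the neighbours of Aldh4a1; the highest came without wildtype replicate 1, for the neighbours also without wildtype replicate 2. Library totals without TMM gave 1505 of 14957 genes in all, 2 of 7 enzymes and 4 of 41 amino acid breakdown genes. Requiring 5 CPM in 3 libraries, which drops Pycr1 and Tas1r2, gave 1038 of 9917 genes in all. That filter gave 2 of 6 enzymes, 3 of 26 amino acid breakdown genes, 2 of 20 ATF4 genes and 0 of 4 neighbours. DESeq2 gave 2671 genes in all, 3 enzymes, 6 proline genes, 6 ornithine genes, 2 aldehyde dehydrogenases, 2 tricarboxylic acid cycle genes and 9 ATF4 genes. The cause of these shifts was not tested. The replicate block gave 537 of 14957 genes in all, with 0 proline, 2 glutamate, 0 ornithine and 2 amino acid breakdown genes. It also gave 2 ATF4 and 2 p53 genes and 0 neighbours. Libraries of the same number, however, shared only that number: their deviations correlated at -0.06, 0.01 and -0.09. Prodh2, with at most 1 read per library, was too scarce to be tested, and the call on Tas1r2 rests on 8 to 43 reads per library.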
